A study of Homo sapiens with 12 samples.

Results

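L1PA4 is a primate-specific subfamily of LINE-1 (L1), the retrotransposon that copies itself through RNA, and the loci described here were the full-length copies that the deposited L1 tables name L1PA4. All rows carrying that name were taken, which gave 1254 loci among 6437 full-length L1 loci of the subfamilies L1HS and L1PA2 to L1PA8. Their reads were counted by RNA sequencing in HAP1, a near-haploid human line derived from a chronic myelogenous leukemia, in wild-type cells (genotype WT) and in a derivative whose SETDB1 gene was knocked out, with 3 biological replicates of each. All 6 libraries came from total RNA of untreated cells in the same medium and from a non-directional kit, in which the strand of origin is lost. The series holds 12 libraries, and no L1 tables of the other 6, made with a directional kit, were analysed here. The labels speak of a single knockout derivative, so the loss of SETDB1 and other traits of that derivative cannot be told apart.

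A full-length L1 carries an internal promoter in its 5′ untranslated region, an open reading frame for an RNA-binding protein and one for an endonuclease and reverse transcriptase. SETDB1 is a histone methyltransferase that writes trimethylated lysine 9 of histone H3, a mark of silent chromatin, and it is brought to L1 copies through KRAB zinc finger proteins and their partner TRIM28. ZNF93 is one such zinc finger protein, known to bind the L1PA4 group of elements and to have lost its site in a set of the younger L1PA3 elements. Old L1 copies can no longer move, but their promoters can start RNA, and copies inside genes are also read as part of the unspliced RNA of those genes.

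The L1PA4 loci measured 6000 to 8504 bp with a median of 6138 bp, and 1103 of the 1254 measured 6100 to 6200 bp. By GENCODE 29, 557 loci lay inside a gene, 384 of them inside a protein-coding gene, and 697 (55.6%) lay outside genes. An annotated exon was overlapped by 30 loci. The X chromosome held 138 loci, followed by chromosome 4 with 108, chromosome 3 with 98 and chromosome 5 with 97, and 12 loci lay on scaffolds. Between subfamily members the sequences were close but not equal. Where exons of GENCODE transcripts covered at least 300 bases of the same stretch in 2 loci, 30 pairs from 10 loci could be aligned, and their identity ran from 86.2% to 95.4% with a median of 91.8%. Over 2784 aligned bases the copies in OLMALINC and AC092902.5, both with higher reads in the knockout, were 93.7% identical. How reads with several alignments were handled is not given in the sources used here, so a value at one locus can hold reads of a near-identical copy.

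The gene tables summed to 8921959 to 10199215 counts per library. SETDB1 itself had 651, 543 and 519 counts in the wild-type libraries and 118, 106 and 118 in the knockout libraries, a log2 fold change of -2.39 ± 0.08 (SE) with an adjusted p of 7.02e-43 in the quasi-likelihood test of edgeR. The groups did not overlap, which fits the labels. Wild-type gene tables differed pairwise by more than sampling noise, with a chi-square per degree of freedom of 1.03 to 2.00, whereas each of the 3 pairs of knockout gene tables differed by no more than sampling noise, with values of 0.956 to 0.991. At the L1PA4 loci the chi-square per degree of freedom was 1.18 to 1.55 in the knockout pairs and 1.32 to 1.88 in the wild-type pairs. In the knockout pairs of L1PA4 loci, replicates 1 and 2 differed beyond sampling noise (chi-square p = 9.87e-05) and the other pairs did not pass 0.05 (p = 0.0662 and 0.0836). Whether the 3 knockout libraries are repeats of 1 RNA was not tested. If they are, their SD is technical and the SE and p values below are too small. They are labelled as biological replicates and were kept as 3 samples, and the calls are also given with the knockout summed as 1 sample. Of 15 blood-cell markers, 7 had at most 3 counts in every library, among them PTPRC, CD34, CD33, MPO and SPI1. KIT, GATA2, TAL1 and RUNX1 were counted in all libraries, as were BCR and ABL1, the partners of the fusion gene of this leukemia, with log2 fold changes of -0.19 without a call (KIT), -0.20 (GATA2), -2.32 (TAL1), -0.14 without a call (RUNX1), 0.64 (BCR) and 1.40 (ABL1). The list summed to 178 to 185 counts per 1000000 (CPM) in wild type and 197 to 199 in knockout.

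Reads of L1PA4 were more abundant in the knockout. Dividing by the gene total of each library gave RPM, the L1 reads per 1000000 gene counts. On this scale the 1254 loci together held 432, 408 and 417 in wild-type replicates 1 to 3 and 573, 567 and 562 in knockout replicates 1 to 3. The groups did not overlap, and the knockout to wild-type ratio was 1.36 (log2 difference 0.44 ± 0.03, SE). On the deposited values, which the authors had divided by 1 factor per library, the log2 difference was 0.083, and against the reads of the other L1 subfamilies it was -0.082. The exact permutation test gave p = 0.1, two-sided, the smallest value that 3 against 3 libraries can give. The number of loci with at least 1 read was 504 to 569 in wild type and 642 to 670 in knockout, and 98 to 112 loci against 129 to 133 had at least 10 reads.

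**Figure D1:**
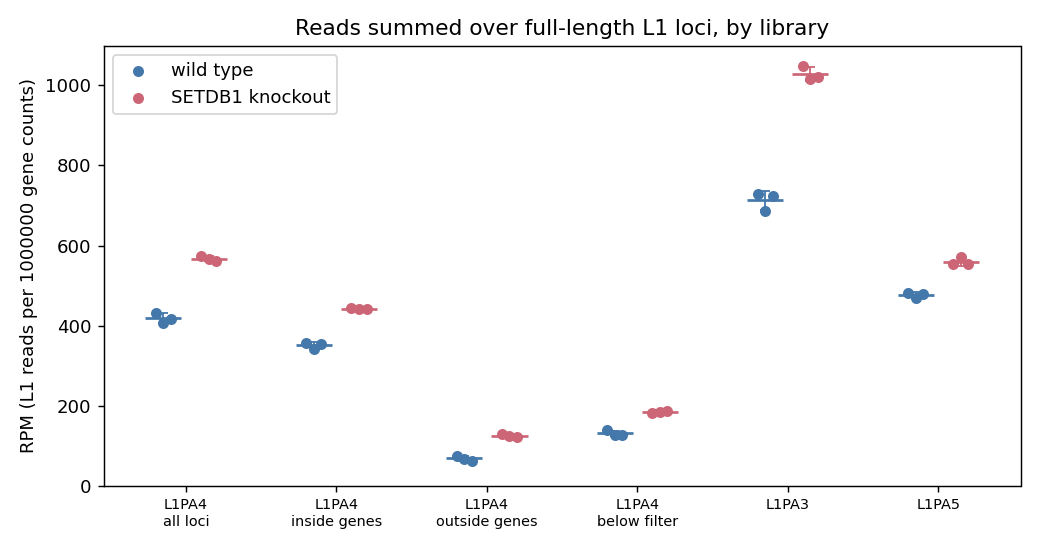
RPM (y axis) summed over sets of L1 loci (x axis) in 3 wild-type (blue) and 3 SETDB1 knockout (red) libraries, with points for libraries, a line at the mean and bars for the SD. In each set the knockout points lie above the wild-type points, and for L1PA4 they lie at 562 to 573 against 408 to 432.

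No single locus made up this total. The 10 loci with the most reads held 19.1% to 20.1% of the L1PA4 reads of a library, and 49 to 55 loci were needed for 50% of them. No reads were found at 153 loci in any library, and 214 loci had reads in all 6. Reads in knockout only were found at 254 loci and reads in wild type only at 115, with at most 10 reads per library at any of these. The same counts over all 6437 L1 loci are not given here, and the total over those loci had a knockout to wild-type ratio of 1.42. For one locus, 3 reads correspond to 0.294 to 0.336 RPM, which is the limit that a count of 0 allows, counting error only.

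Compared with its neighbours in age, L1PA4 stood between the younger L1PA3 and the older L1PA5. Total RPM was 713 ± 24.1 in wild type and 1028 ± 18.0 in knockout (SD, n = 3) at the 1380 L1PA3 loci, a ratio of 1.44, and 477 ± 6.93 and 560 ± 9.92 at the 870 L1PA5 loci, a ratio of 1.17. Within a library, the log2 ratio of L1PA4 to L1PA3 reads was -0.76, -0.75 and -0.80 in wild type and -0.87, -0.84 and -0.86 in knockout, lower in each knockout library by 0.09 on average. The log2 ratio of L1PA4 to L1PA5 reads was -0.16, -0.20 and -0.20 in wild type and 0.05, -0.01 and 0.02 in knockout, a difference of 0.21 ± 0.02 (SE). In both comparisons the groups did not overlap and the exact permutation p was 0.1, also after Benjamini-Hochberg adjustment over the 2 neighbouring subfamilies. The order against L1PA3 turned when loci inside genes were left out: over loci outside genes the L1PA4 to L1PA3 ratio was higher in knockout by 0.21. Among L1PA3, 34.9% of wild-type reads fell outside genes, against 16.3% for L1PA4. Over all L1 loci the ratio was 1.42, and L1PA4 made up 14.0% to 14.2% of L1 reads in wild type and 13.4% in each knockout library.

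The change differed between loci outside and inside genes. Loci outside genes held 75.6, 66.0 and 63.0 RPM in wild type and 129, 125 and 121 in knockout, a ratio of 1.84 (log2 difference 0.88 ± 0.08, SE). Loci inside genes held 357, 342 and 354 in wild type and 444, 442 and 441 in knockout, a ratio of 1.26, and the 384 loci inside protein-coding genes held 298 ± 4.87 and 351 ± 6.19 (SD, n = 3), a ratio of 1.18. The ratio of outside to inside reads was higher in every knockout library than in every wild-type library, by 0.55 ± 0.08 (SE) on the log2 scale (exact permutation p = 0.1, two-sided). This was not particular to L1PA4: the knockout to wild-type ratio was 1.60 outside against 1.36 inside genes for L1PA3 and 1.46 against 1.11 for L1PA5. Among the other subfamilies only L1PA6 had the lower ratio outside, 0.979 against 1.10. Loci outside genes held 15.1% to 17.5% of L1PA4 reads in wild type and 21.6% to 22.6% in knockout, and they gave 38.4% of the net difference of 149 RPM. On the X chromosome, the 138 loci together held 33.8, 27.8 and 30.5 RPM in wild type and 50.2, 54.8 and 47.4 in knockout, a ratio of 1.66.

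For single loci, the filter on low reads left 119 of the 1254, of which 10 lay outside genes and 109 inside. Of these, 65 reached the minimum of the filter in all 6 libraries, 12 in no wild-type library and 3 in no knockout library, so the last 15 were kept only because 1 group was high. The filter asks for the minimum in 3 libraries of any group. Loci that met it in only some wild-type libraries, such as that in FAM126A, also needed knockout libraries to pass. They are not among the 15. With limma on log2(RPM + 0.1) and Benjamini-Hochberg adjustment over all 816 L1 loci that passed, 32 L1PA4 loci had an adjusted p under 0.05, 27 higher and 5 lower. Of the 32, 10 had no wild-type library at the minimum of the filter and 3 had no knockout library at it. These 13 could only have entered the test through the group where they were high, so passing the filter set their direction. The 10 were the loci in AC004014.1, LINC00624, ZNF626, AC022639.1, AC008739.2 and DYNC2H1, chr1:225168189-225174275 in DNAH14, and the outside loci chr3:36082745-36088885, chr1:93401958-93408098 and chr9:110229430-110235911. The 3 were those in EPHB1, TMEM108 and NELL2. Over all 816 loci the share called was 34.4%, 30.1% higher and 4.29% lower, and the 26.9% called among L1PA4 loci was below it, a difference that was not tested. The median log2 fold change was 0.26 over the L1PA4 loci and 0.37 over all 816. Among L1PA3 loci 81 of 196 were called and among L1PA5 loci 18 of 104. With the knockout libraries summed as 1 sample, 13 L1PA4 loci were called, 11 higher and 2 lower, all 13 among the 32. Of the 12 largest rises described next, 6 lost their call in this way, those in AC004014.1, LINC00624 and AC022639.1 and those outside genes at chr3:36082745-36088885, chr1:93401958-93408098 and chr9:110229430-110235911, as did the falls in NELL2 and NMNAT3. Of the 13 called loci that reached the minimum in all 6 libraries, all were higher. Over all 816 loci, 246 of the 281 called were higher. The like count at the minimum in all 6 libraries is not given for them, so the 13 cannot be read as particular to L1PA4.

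The 27 loci called higher went from 53.1 ± 2.55 to 134 ± 5.69 RPM together (SD, n = 3), and the difference is 54.5% of the net difference. Loci called higher or lower were chosen by their difference in these same libraries, so their sums and share describe that choice and test nothing. Of the 27, 10 entered the test only through the knockout. The 5 called lower went from 8.15 ± 0.922 to 2.39 ± 0.493, and their number was 3, 2 and 3 without wild-type replicates 1, 2 and 3 and 8 on the deposited values. The 87 tested loci without a call went from 227 ± 5.42 to 247 ± 3.36. The 1135 loci below the filter had at most 22 reads in any library, and yet they went together from 131 ± 7.16 to 184 ± 3.02, a ratio of 1.41 and 35.9% of the net difference. Here 615 of these thin loci had a higher mean in knockout and 367 a lower one, with no like count over thin loci of all L1 subfamilies beside them. The called loci did not stand out by length, with a median of 6139 bp against 6135 bp at tested loci without a call, and they lay on 14 chromosomes. Chromosome 19 had 6 tested loci of which 4 were called, all higher. Chromosome 3 had 15 tested, of which 3 were called higher and 3 lower. On chromosome 19, passing the filter set the direction of the loci in ZNF626 and AC008739.2. On chromosome 3, it did so for those in EPHB1 and TMEM108 and for chr3:36082745-36088885. The like counts over all L1 loci of these chromosomes are not given here, so these counts cannot be read as particular to L1PA4.

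**Figure D2:**
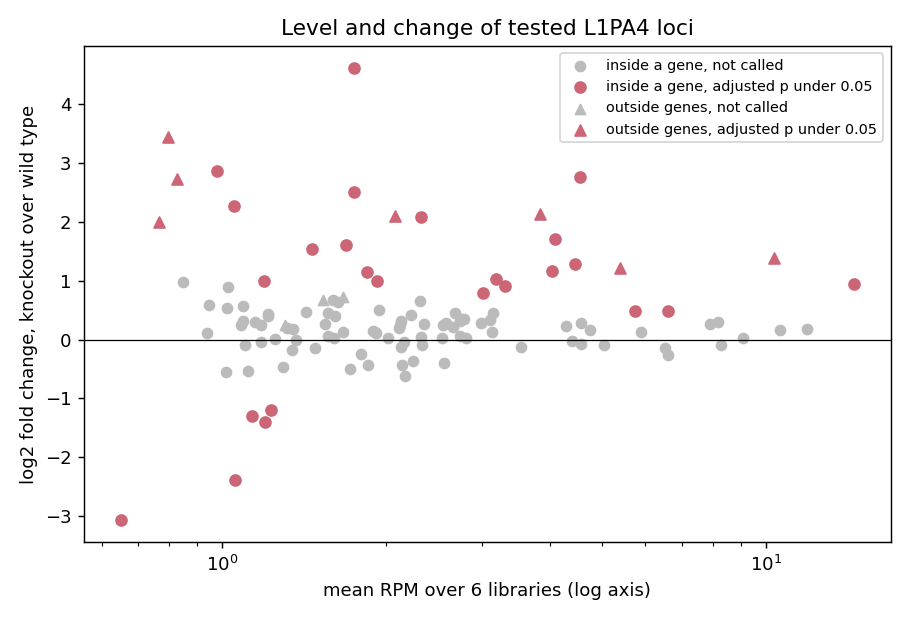
Log2 fold change, knockout over wild type (y axis), against the mean RPM (x axis, log scale) of the 119 tested L1PA4 loci, with circles for loci inside a gene, triangles for loci outside genes and red for an adjusted p under 0.05. Red triangles are all above 0 (7 of 10 outside loci), and the 5 red points below 0 are circles at low levels. Some red points passed the filter only through the group where they were high.

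All 7 called loci outside genes were higher in the knockout, out of 10 outside loci tested. Of these 7, chr3:36082745-36088885, chr1:93401958-93408098 and chr9:110229430-110235911 had no wild-type library at the minimum of the filter. Their direction was thus set by passing the filter. The share called over outside loci of all L1 subfamilies is not given here. The most abundant of the 7, chrX:70210403-70216535, lay 4858 bp from DGAT2L6, a gene of an acyltransferase family. It had 63, 44 and 56 reads in wild type and 164, 153 and 129 in knockout, which is 6.18, 4.93 and 5.96 against 16.8, 15.6 and 12.7 RPM. Its groups were far apart, and its log2 fold change was 1.38 ± 0.16 (SE), adjusted p = 3.28e-06. At chr3:16676613-16682753 there were 14, 14 and 11 reads in wild type and 64, 59 and 65 in knockout, a 4.61-fold difference in RPM (log2 2.13 ± 0.23, SE, limma adjusted p = 1.67e-06). This locus lay 5233 bp from the gene AC091493.1, which had too few counts to be tested.

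A locus that was almost silent in wild type was chr3:36082745-36088885, 80882 bp from the pseudogene RFC3P1. It had 0, 0 and 2 reads in wild type and 17, 17 and 11 in knockout, a ratio of 21.6 with a 95% exact counting interval of 5.64 to 184. Such intervals pool the 3 libraries of a group and cover counting error only, whereas some replicate pairs varied by more than that. On chromosome 1, chr1:93401958-93408098 had 2, 0 and 3 reads in wild type and 10, 19 and 15 in knockout (log2 2.73 ± 0.70, SE, limma adjusted p = 0.00508). Both were low enough that the call of the first was lost without knockout replicate 1 (adjusted p = 0.0691) and of the second without knockout replicate 2 (adjusted p = 0.0606). At chrX:118241707-118247865 the reads were 11, 7 and 4 in wild type and 33, 34 and 34 in knockout (log2 2.10 ± 0.34, SE, adjusted p = 0.000103), and the nearest gene, AL391358.1 at 30294 bp, had a log2 fold change of 2.77. At chr9:110229430-110235911, which lay 7900 bp from TXN, the gene of thioredoxin, there were 2, 3 and 2 reads in wild type and 14, 12 and 12 in knockout, 0.248 ± 0.0765 against 1.28 ± 0.134 RPM (limma adjusted p = 0.00994, and 0.0867 without knockout replicate 1). The 45 genes tested within 5 Mb of it showed a median of 0.47 on the log2 scale, and the part of this regional difference in the locus was not tested. The remaining called outside locus, chr5:120126862-120133028, had 50, 34 and 14 reads in wild type and 84, 52 and 84 in knockout, so that its wild-type replicates varied widely (log2 1.22 ± 0.31, SE, adjusted p = 0.00524).

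The outside loci without a call were chr15:30775178-30781390, chr1:121598207-121604319 and chr3:122732872-122739022. Their reads were 8 to 16, 6 to 14 and 9 to 16 in wild type and 10 to 16, 14 to 22 and 16 to 30 in knockout, and the first 2 overlapped between groups when scaled.

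Among loci inside genes, the largest difference was at chr7:108937533-108943685, in AC004014.1. It had 2, 0 and 0 reads in wild type and 40, 30 and 32 in knockout, a ratio of 48.9 with a 95% exact counting interval of 13.2 to 409 (limma adjusted p = 1.05e-05). This locus and that in AC022639.1 below had no wild-type library at the minimum of the filter, so passing it set their direction. AC004014.1 itself had too few counts to be tested. In knockout this L1PA4 copy was at 3.06 to 4.09 RPM, well inside the range of the tested loci, while no wild-type library exceeded 0.196. The locus in FAM126A, at chr7:22924197-22930356, had 9, 12 and 10 reads in wild type and 87, 81 and 70 in knockout. FAM126A encodes hyccin, a part of a lipid kinase complex at the plasma membrane. The difference at this locus was 7.31-fold (log2 2.77 ± 0.24, SE, adjusted p = 8.41e-08), whereas the gene FAM126A differed by 0.35 ± 0.04 on the log2 scale. A like gap was seen in ACER3, an alkaline ceramidase, where the locus chr11:76963834-76969955 had 16, 18 and 19 reads in wild type and 63, 67 and 58 in knockout (log2 1.71 ± 0.22, SE, limma adjusted p = 1.05e-05) and the gene differed by 0.21. At chr8:64102229-64108366, in AC022639.1, the reads were 4, 4 and 1 against 17, 23 and 13 (log2 2.27 ± 0.53, SE, adjusted p = 0.00276), and the gene, with 3 to 17 counts per library, differed by 0.92.

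In LINC00624, ZNF626 and DYNC2H1 both the locus and the gene that holds it were higher. None of these loci, nor that in AC008739.2 below, had a wild-type library at the minimum of the filter. Passing the filter thus set the direction of these loci, and their p values do not support it. LINC00624, a long noncoding RNA, had 26, 20 and 24 counts in wild type and 187, 195 and 215 in knockout (log2 3.02 ± 0.14, SE), and its L1PA4 locus chr1:147402385-147408529 had 1, 0 and 6 reads against 13, 17 and 21 (log2 2.87 ± 0.70, SE, limma adjusted p = 0.00359). The 90 genes tested within 5 Mb of it showed a median of -0.45 on the log2 scale, opposite to both. ZNF626 encodes a KRAB zinc finger protein of a cluster on chromosome 19. It had 8, 3 and 10 counts in wild type and 138, 129 and 113 in knockout (log2 4.09 ± 0.22, SE), and the locus chr19:20627782-20633939 in it had 3, 5 and 5 reads against 35, 26 and 29 (log2 2.50 ± 0.37, SE, limma adjusted p = 4.40e-05). In the same cluster, chr19:20841022-20847152 in AC008739.2 had 10, 9 and 5 reads against 31, 39 and 43 (log2 2.08 ± 0.32, SE, adjusted p = 5.38e-05), and its gene was not tested. The 139 genes tested within 5 Mb of these 2 loci showed a median of 0.16. DYNC2H1, a motor subunit of ciliary transport, rose by 1.12 on the log2 scale, and its locus chr11:103386500-103392632 had 9, 6 and 5 reads against 28, 20 and 18 (log2 1.54, limma adjusted p = 0.00309).

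**Figure D3:**
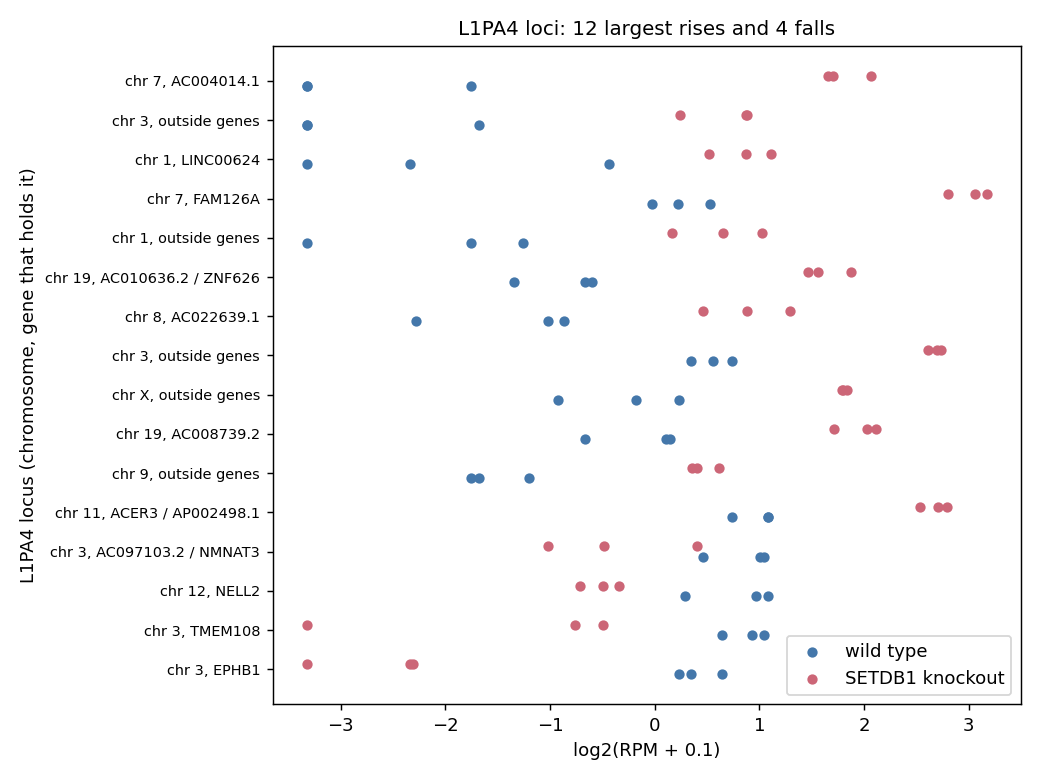
Log2(RPM + 0.1) (x axis) in each library at the 12 L1PA4 loci with the largest rises and the 4 called lower without overlap between groups (y axis, by chromosome and gene), with blue points for wild type and red for knockout. The loci were chosen for groups that do not overlap, and points at the far left are libraries with 0 reads.

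Together with the 12 largest, 15 more loci were called higher, with log2 fold changes of 0.48 and above. They included chr19:40037916-40044054 in the zinc finger gene ZNF780B, with 22, 20 and 31 reads against 56, 73 and 59 (log2 1.29), and chr3:125849811-125855962, the locus in AC092902.5, with 12, 4 and 8 against 26, 25 and 25, the highest of these (log2 1.605). The gene tested at that locus, AC092902.2, has an exon in it. AC092902.2 had 3, 3 and 7 counts against 25, 34 and 43 (log2 2.87, edgeR adjusted p = 1.67e-11). The smallest rises were in TRIM44, a TRIM family gene (0.48), and in ATP6V1H, a subunit of the vacuolar proton pump (0.49). All 27 loci called higher had every knockout library above every wild-type library in RPM. This was so at 38 of the 119 tested loci, while at 7 every knockout library was below and at 74 the groups overlapped. The same shares over all 816 tested L1 loci are not given here, so these counts cannot be read as particular to L1PA4.

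Loci called lower all lay inside genes, and 4 of them without overlap between groups. Those in EPHB1, TMEM108 and NELL2 had no knockout library at the minimum of the filter, so passing it set their direction. The locus chr3:135061599-135068235 in EPHB1, an ephrin receptor, had 11, 13 and 11 reads in wild type and 0, 1 and 1 in knockout, 18.2-fold lower with a 95% exact counting interval of 4.69 to 157. EPHB1 had 263, 239 and 249 counts against 26, 30 and 38, a log2 fold change of -3.06. The locus had -3.06 on log2(RPM + 0.1), a scale that understates falls to so few reads, and -3.96 in edgeR on recovered reads. An exon of an EPHB1 transcript covers 386 bp of this locus. In TMEM108, chr3:133173707-133179818 had 20, 13 and 17 reads against 0, 6 and 5 (log2 -2.39 ± 0.65, SE, limma adjusted p = 0.00762), while the gene had 217, 191 and 180 counts against 0, 1 and 3. In NELL2, which encodes a secreted glycoprotein, chr12:44741318-44747454 had 19, 10 and 19 reads against 5, 6 and 7 (log2 -1.30 ± 0.41, SE), and the gene fell by 1.66 on the log2 scale. In NMNAT3, an enzyme of NAD synthesis in mitochondria, chr3:139565365-139571485 had 20, 17 and 12 reads against 6, 12 and 4 (log2 -1.20 ± 0.43, SE, limma adjusted p = 0.0365), and the gene fell by 0.77. This call was lost under 8 of 15 alternatives, and those of EPHB1 and TMEM108 without wild-type replicate 2 (limma adjusted p = 0.0914) and 3 (limma adjusted p = 0.0518). Almost all of this locus, 6086 bp, is annotated as an exon of an NMNAT3 transcript. The fifth, chr4:173603063-173609186 in HAND2-AS1, overlapped between groups, with 21, 22 and 8 reads against 10, 4 and 4, and its gene had a log2 fold change of -0.04.

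Of the 27 loci called higher, 20 lay inside a gene, 18 of them in a gene with enough counts to be tested. The gene was called higher at 13 of these 18, lower at 0 and without a call at 5, and the log2 fold change of the locus was above that of the gene at 15 and above it by over 1 at 4. The gene was called lower at 4 of the 5 loci called lower. Over all genes tested, edgeR called 51.5%, 25.5% higher and 25.9% lower. At the 82 tested loci without a call whose gene was tested, the gene was called higher at 23 and lower at 15. Across the 103 loci that lay in exactly 1 tested gene, the Spearman correlation of the log2 fold changes of locus and gene was 0.71, a description over points that share the same 6 libraries. An annotated exon was overlapped by 13 tested loci, of which 5 were called, among them those in NMNAT3, EPHB1 and OLMALINC. At such loci the same reads may be counted for both locus and gene, so the 2 values are not independent. How far this raised the agreement was not tested. In libraries without strand, reads begun at the L1 and reads of the unspliced RNA of the gene cannot be told apart.

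**Figure D4:**
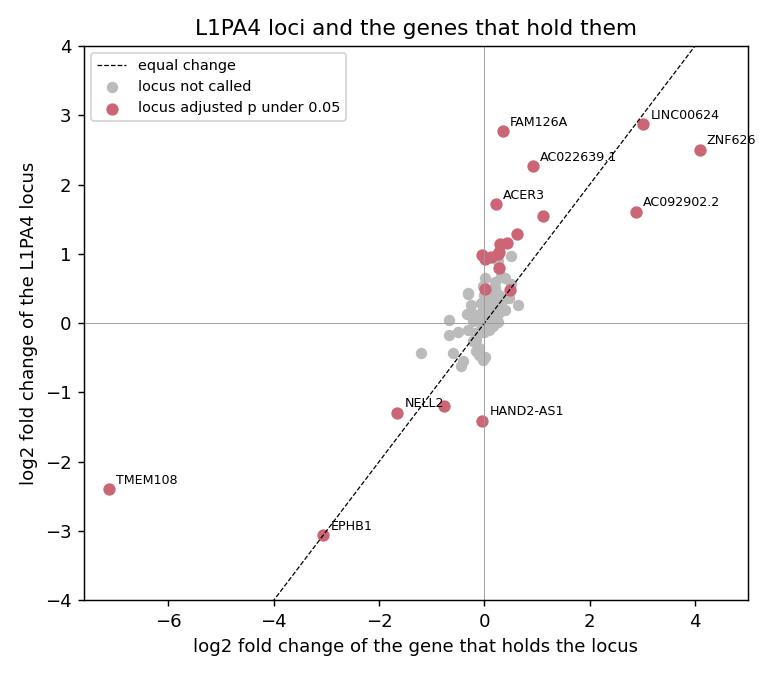
Log2 fold change of L1PA4 loci (y axis) against that of the gene that holds them (x axis), with red for loci with an adjusted p under 0.05 and a dashed line for equal change. FAM126A (locus 2.77, gene 0.35) and ACER3 (locus 1.71, gene 0.21) lie far above the line. EPHB1 lies on it at -3.06, where the log2(RPM + 0.1) scale understates the fall of the locus.

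Of the 6 most abundant loci, only the OLMALINC locus and the X-linked locus above were called. OLMALINC is a long noncoding RNA with an exon that covers 2957 bp of its L1PA4 copy, chr10:100406331-100412500. This locus had 124, 76 and 86 reads in wild type and 182, 187 and 198 in knockout, 9.94 ± 1.94 against 19.1 ± 0.434 RPM (SD, n = 3), and its log2 fold change was 0.95 ± 0.14 (SE, limma adjusted p = 4.82e-05). OLMALINC itself had 334, 282 and 287 counts against 345, 342 and 351, a log2 fold change of 0.13 with an edgeR adjusted p of 0.0974. The other 4 lay in introns of protein-coding genes that are expressed in both groups. In ALDH1A2, which makes retinoic acid, chr15:58026399-58032514 had 11.2 ± 1.18 against 12.6 ± 0.916 RPM. In DTD1 and BLVRA, the latter a biliverdin reductase, the loci chr20:18755271-18761370 and chr7:43773138-43779287 had 10.0 ± 1.77 against 11.2 ± 1.58 and 8.92 ± 1.19 against 9.21 ± 1.99. In ELOVL6, a fatty acid elongase, chr4:110076601-110082755 had 8.51 ± 0.584 against 8.05 ± 1.62. At each of these 4 the libraries of the groups overlapped, with limma adjusted p from 0.371 to 0.927.

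A list of 34 genes that silence or otherwise act on L1 and other repeats (silencing genes below) included SETDB1 itself. Among its 30 tested genes, 12 were higher, 11 lower and 7 without a call in edgeR, beside 51.5% called over all genes. SETDB1, the gene knocked out, is among the 11. The median log2 fold change of the list was -0.0030, beside -0.0012 for all genes. ZNF93 had the largest difference, with 6, 4 and 5 counts in wild type and 261, 237 and 258 in knockout (log2 5.55 ± 0.19, SE, adjusted p = 5.21e-42). ATF7IP, the partner that stabilises SETDB1, rose from 57.2 ± 0.801 to 177 ± 5.13 CPM (SD, n = 3), a log2 fold change of 1.62. The zinc finger genes ZNF649 and ZNF765, also known to bind L1 elements, rose by 0.22 and 0.25 on the log2 scale. Among partners in the HUSH complex and its helpers, TASOR rose by 0.30, PPHLN1 by 0.18 and MORC2 by 0.27, and MPHOSPH8 had a log2 fold change of -0.06 without a call. TRIM28 fell by 0.11. Of other writers of H3 lysine 9 methylation, SUV39H1 fell by 0.74, and SUV39H2, EHMT1 and EHMT2 had no call, with log2 fold changes of -0.01, 0.02 and -0.08. DNMT1 and its partner UHRF1 fell by 0.23 and 0.19, whereas DNMT3B rose by 0.43 and the remodeller HELLS by 0.33. AGO2, an Argonaute protein named in the study's title, had 192 ± 4.57 and 256 ± 1.09 CPM, a log2 fold change of 0.40 (edgeR adjusted p = 1.46e-18). TEX19, a gene of the germ line that restricts L1, fell by 1.10. MORC1, PIWIL1 and TDRD1, which act against transposons in germ cells, were at 0 counts in all 6 libraries.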

How the data were processed

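RNA was sequenced from wild-type and SETDB1 knockout HAP1 cells with a non-directional kit, 3 libraries each, grouped by their titles. The authors deposited raw gene counts and, per L1 locus, a signal that held whole reads divided by 1 factor per library (100% whole within 0.001), so reads were recovered by dividing by the smallest non-zero value. The submitters' processing notes name Trim Galore 0.4.4, STAR 2.6.0a, SAMtools 1.9, Picard 2.23.8 and HTSeq 0.11.1 on hg38, with no role or order. Whether locus positions count from 0 or 1 is not given in the sources used here, and they are printed as deposited. Gene IDs were matched to GENCODE 29 (58735 of 58735). The closing lines of the gene tables that name no gene held 19.6% to 19.7% of the listed reads (6.86% to 7.19% not aligned uniquely) and were left out. The 6 directional libraries were not used.

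L1 reads were scaled to reads per 1000000 gene counts (RPM), and gene levels to counts per 1000000 (CPM). Loci were filtered with filterByExpr (minimum 10, total 15) and tested with limma 3.58.1 (trend) on log2(RPM + 0.1). Fold changes of low loci are understated on that scale. Genes were tested with edgeR 4.0.16 in R 4.3.3, with standard errors as the log2 fold change over the root of F. DESeq2 1.42.0 was an alternative. Adjusted p-values are Benjamini-Hochberg, with a threshold of 0.05. Single totals and ratios were tested by exact permutation. The tests were tested on simulated data. Named loci were the 12 largest rises and up to 8 falls among called loci without overlap between groups, and the 6 of highest mean; other called loci were chosen after their values were seen. The members, gene lists and rules were chosen with earlier results of these data known. Sequences of the loci are not reported here.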

Additional observations from a re-analysis of the deposited data

How the results depend on the processing

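The L1PA4 total kept its direction under 15 of 16 alternatives, but as deposited its log2 difference was 0.083, and per reads of the other L1 subfamilies it was -0.082. As deposited, 1 read had a value of 1.04, 1.22 and 1.12 in wild-type replicates 1 to 3 and 0.838, 0.856 and 0.835 in knockout replicates 1 to 3. What these factors were drawn from was not tested. The total without one library ranged from 0.42 to 0.46. Against L1PA3 the difference of -0.09 turned to 0.21 over loci outside genes and was -0.01 over loci that passed the filter. Against L1PA5 and between outside and inside loci no alternative turned the direction. Of the 32 called loci, 13 were called with the knockout summed as 1 sample (11 higher against 27, 2 lower against 5), a test with fewer samples. Loci called lower numbered 3 without the filter, where 1101 loci were tested, and 8 on the deposited values, beside 20 called higher there, 71.4% against 84.4% higher. Leaving out one library gave 24 to 33 called loci, 20 to 30 higher and 2 to 5 lower; 3, 2 and 3 were lower without wild-type replicates 1, 2 and 3. edgeR called 32 and DESeq2 27. Silencing genes called ranged from 20 to 23.

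The replicate numbers did not pair the samples: deviations of same-numbered libraries correlated at 0.12, 0.03 and 0.14 over L1PA4 loci. With the replicate block the total was 0.44, the differences -0.09, 0.21 and 0.55, the called loci 29 (24 higher, 5 lower), and the silencing genes 23; edgeR with the block, added after seeing the data, called 28, and the loci below the filter, also added, gave 0.50.

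Of the 18 named loci with a call, 8 were called under each of 15 alternatives, among them FAM126A, ACER3, OLMALINC and chr3:16676613-16682753. The NMNAT3 locus was lost under 8 and the NELL2 locus under 5, the TMEM108 locus without wild-type replicate 3 (adjusted p = 0.0518) and the EPHB1 locus without wild-type replicate 2 (limma adjusted p = 0.0914). Directions turned only at loci without a call. Without single libraries the ELOVL6 locus ranged from -0.23 to 0.066, above 0 without knockout replicate 2. The BLVRA locus was -0.32 on the deposited values and -0.086 to 0.22 without single libraries. On the deposited values the ALDH1A2 locus was -0.18 and the DTD1 locus -0.19. Depth limits the 1135 loci below the filter to their sum. No cause of these shifts was tested beyond those given.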
